A study of Rattus norvegicus with 12 samples.

Results

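The comparison was of ventricular cardiomyocytes of newborn rats stretched for 24 h with unstretched cells of the same kind. It rests on 6 of the 12 arrays of the series, chosen by their titles: 3 of cells stretched for 24 h and 3 of controls. The other 6 arrays, of cells stretched for 2 or 6 h, entered the choice of probes, the estimate of the spread and comparisons with the earlier times. Those of 6 h also carried the fit of a slide term, described below. All cells came from neonatal rats with no genotype or transgene named, had 24 h in culture with 10% serum, and grew on silicone membranes coated with type I collagen. The stretched cells were then pulsed along both axes to 20% elongation for 24 h, while the controls lay unstretched on plates of the same kind. The labels call the 3 arrays of a group biological replicates and do not say whether they were separate isolations, so the p-values measure the spread between these samples. They name no culture time for the controls, so stretch and time in culture cannot be told apart.

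Cardiac muscle cells sense load through the sarcomere, the membrane and their contacts with the matrix. Lasting load is known to bring back part of the fetal gene programme, with natriuretic peptides secreted from the cell, while genes for calcium pumping, repolarising currents and fatty-acid oxidation often decline. Cultures of such cells also hold other cells of the heart, among them fibroblasts, endothelial cells and macrophages, so that RNA of a culture is a mixture.

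Each array read 30367 probes in 1 colour. A level below is the background-subtracted signal of a gene's probe divided by the array's own 75th percentile, so that 1.00 is as bright as that percentile, and levels of different genes are not compared. A change is the difference of mean log2 levels, 24 h minus control, with the standard error of the limma model and n = 3 arrays per group. Of 14376 named genes tested, 6888 were called at an adjusted p under 0.05, 47.9% of them: 2324 (16.2%) rose and 4564 (31.7%) fell. These shares are the ones to hold against the counts of each gene list below. The change of the called genes was mostly small, with a median size of 0.37 on the log2 scale, and 486 changed at least 2-fold, 80 upward and 406 downward. The 3 arrays of 24 h did not overlap with the 3 controls in 8463 genes (58.9%), which is the share to hold against each gene described below as not overlapping. The 75th percentile lay between 1256 and 1671 on the 6 arrays, 65.5% to 70.6% of spots were well above background, and 0 were saturated. Across genes, which are not independent replicates, the arrays of a group correlated at 0.9975 to 0.9984 and a control with a 24 h array at 0.9887 to 0.9912.

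**Figure D1:**
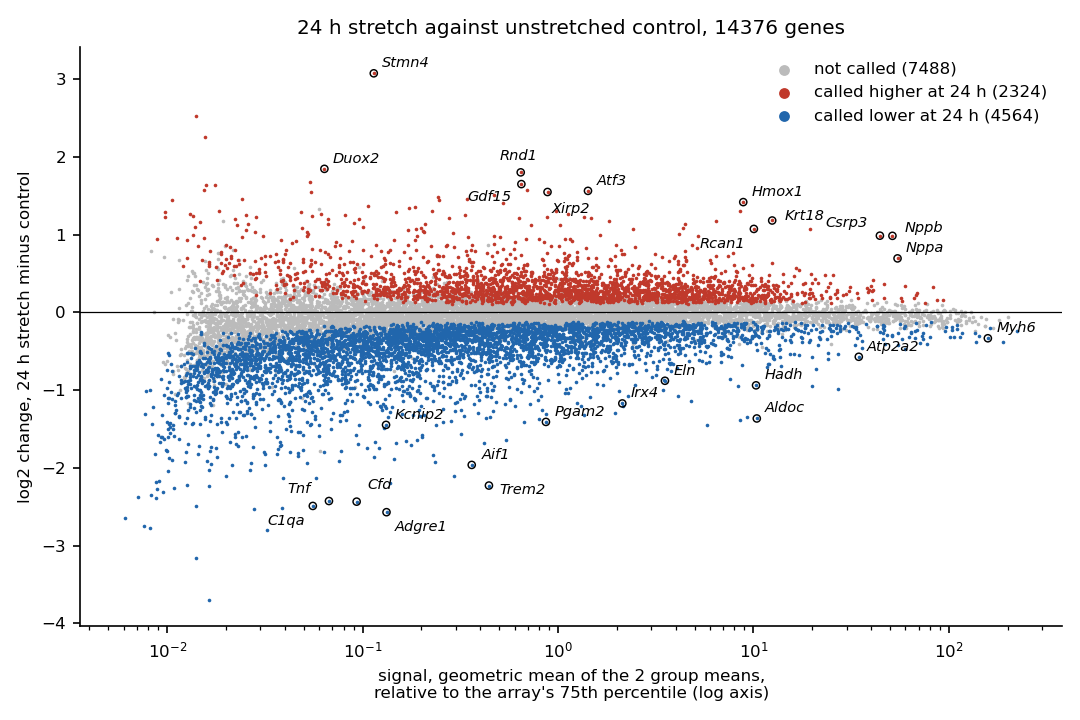
Each point is 1 of the 14376 genes, with its mean signal in the 2 groups across (log axis, relative to the array's 75th percentile) and its log2 change, 24 h stretch minus control, upward. Red genes were called higher (2324), blue genes lower (4564) and grey genes not (7488). Large falls, among them Adgre1, C1qa and Tnf, lie at low signal, and Nppa and Nppb at high signal.

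Which way most genes moved depends on the scaling. The median change of all genes was -0.08 here, 0.11 when arrays were scaled by their median and 0.35 when they were scaled by the spike-in spots. Of the called genes 66.3% fell; the share was 28.3% with the array median, 10.4% with spike-ins, 46.7% after quantile normalization, 74.8% after normexp background correction and 52.2% in the deposited series matrix. The spike-in scaling moves all genes up by 0.43 and the array median by 0.19, so a fall smaller than these turns its sign. Slide is tied to the comparison: the controls lay on slide 1 and the 24 h arrays on slide 2, scanned apart, so no slide gives a value of its own. The 6 h group spans both slides, which lets a slide term be fitted. That term rests on 6 h replicate 3, on slide 2, against 6 h replicates 1 and 2, on slide 1. The effect of the slide and the deviation of that array therefore cannot be told apart. With the slide term 2045 of 14376 genes were called, 497 higher and 1548 lower, and 2008 of these were called in the same direction without it. The slide-term counts of each list below are to be held against 497 and 1548 of 14376, not against 16.2% and 31.7%. Of the 6888 calls 99.3% kept their sign with the slide term.

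**Figure D2:**
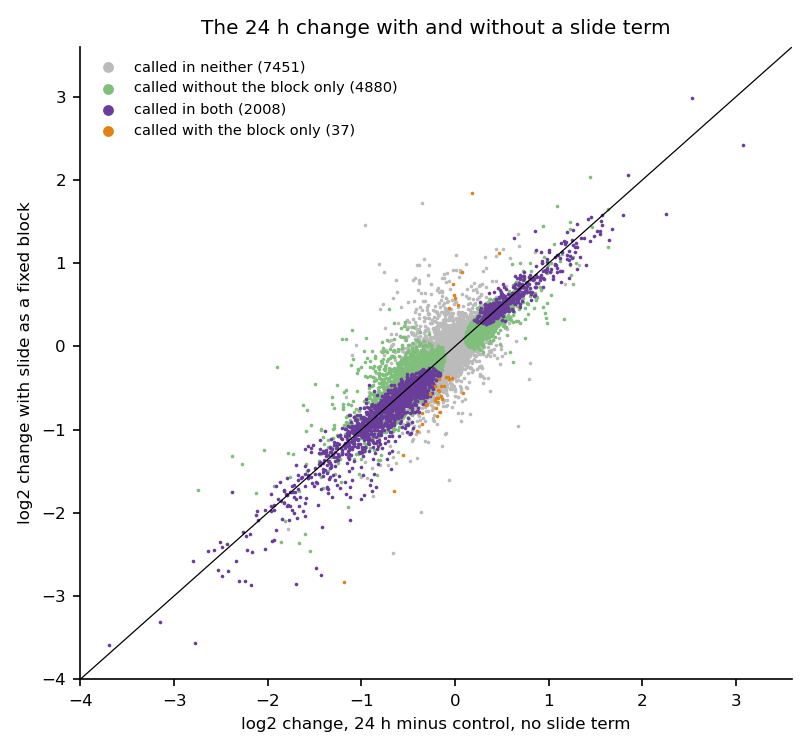
Each point is a gene, with its log2 change without a slide term across and with slide as a fixed block upward; the line marks equal values. Purple genes (2008) were called in both fits, green genes (4880) only without the block and orange genes (37) only with it.

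Natriuretic peptides and known stretch markers mostly rose: of 25 tested members of that list 17 rose, 1 fell and 7 were not called, with a median change of 0.35 against -0.08 for all genes and 0.36 with the slide term, where 12 higher and 1 lower were called. Nppb gave 39.7, 34.2 and 35.8 on the control arrays and 72.9, 78.8 and 65.4 on the 24 h arrays. This gene, read by a probe at chr5:165062879-165062938 of build rn4, encodes B-type natriuretic peptide, a hormone released by loaded heart muscle, and its change was 0.98 ± 0.08 (adjusted p = 5.46e-06). Nppa gave 45.2, 40.4 and 43.4 on the control arrays and 69.3, 67.9 and 71.2 on the 24 h arrays, a change of 0.69 ± 0.06 (adjusted p = 9.95e-06). Nppa encodes the atrial peptide, and its probe lies nearby at chr5:165074636-165074695. The groups did not overlap for either peptide. Nppb had already risen at 2 h (0.45) and 6 h (0.75), whereas Nppa was at -0.17 and -0.08 at those times, neither called, and rose by 0.78 between 6 and 24 h.

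The largest changes of the list belonged to secreted, membrane and cytoskeletal genes. Gdf15 gave 0.368, 0.410 and 0.323 on the control arrays and 1.26, 1.1 and 1.08 on the 24 h arrays, a change of 1.65 ± 0.12; it encodes a stress-induced cytokine of the TGF-beta family. Xirp2 gave 0.513, 0.512 and 0.521 on the control arrays and 1.55, 1.69 and 1.30 on the 24 h arrays, a change of 1.55 ± 0.15; its product binds actin where muscle cells adjoin. Rcan1 gave 7.31, 6.42 and 7.07 on the control arrays and 14.5, 15.7 and 13.6 on the 24 h arrays, a change of 1.07 ± 0.07; this inhibitor of calcineurin is itself a calcineurin target. The groups did not overlap in any of the 3, as in 58.9% of all genes. Tnfrsf12a, the receptor for the cytokine TWEAK, rose by 1.30, Il1rl1, the IL-33 receptor, by 1.23, and Csrp3, a Z-disc protein, by 0.99. Smaller rises were those of Acta1, skeletal alpha-actin (0.32 ± 0.07), and Ankrd1, a titin-binding repressor (0.32 ± 0.06). Acta1 stood higher at 6 h (0.60) and was lower at 24 h than at 6 h by 0.29. The call for Ankrd1 was lost with slide as a fixed block (0.24, adjusted p = 0.173). Corin, the protease that activates the atrial peptide, was the member that fell.

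**Figure D3:**
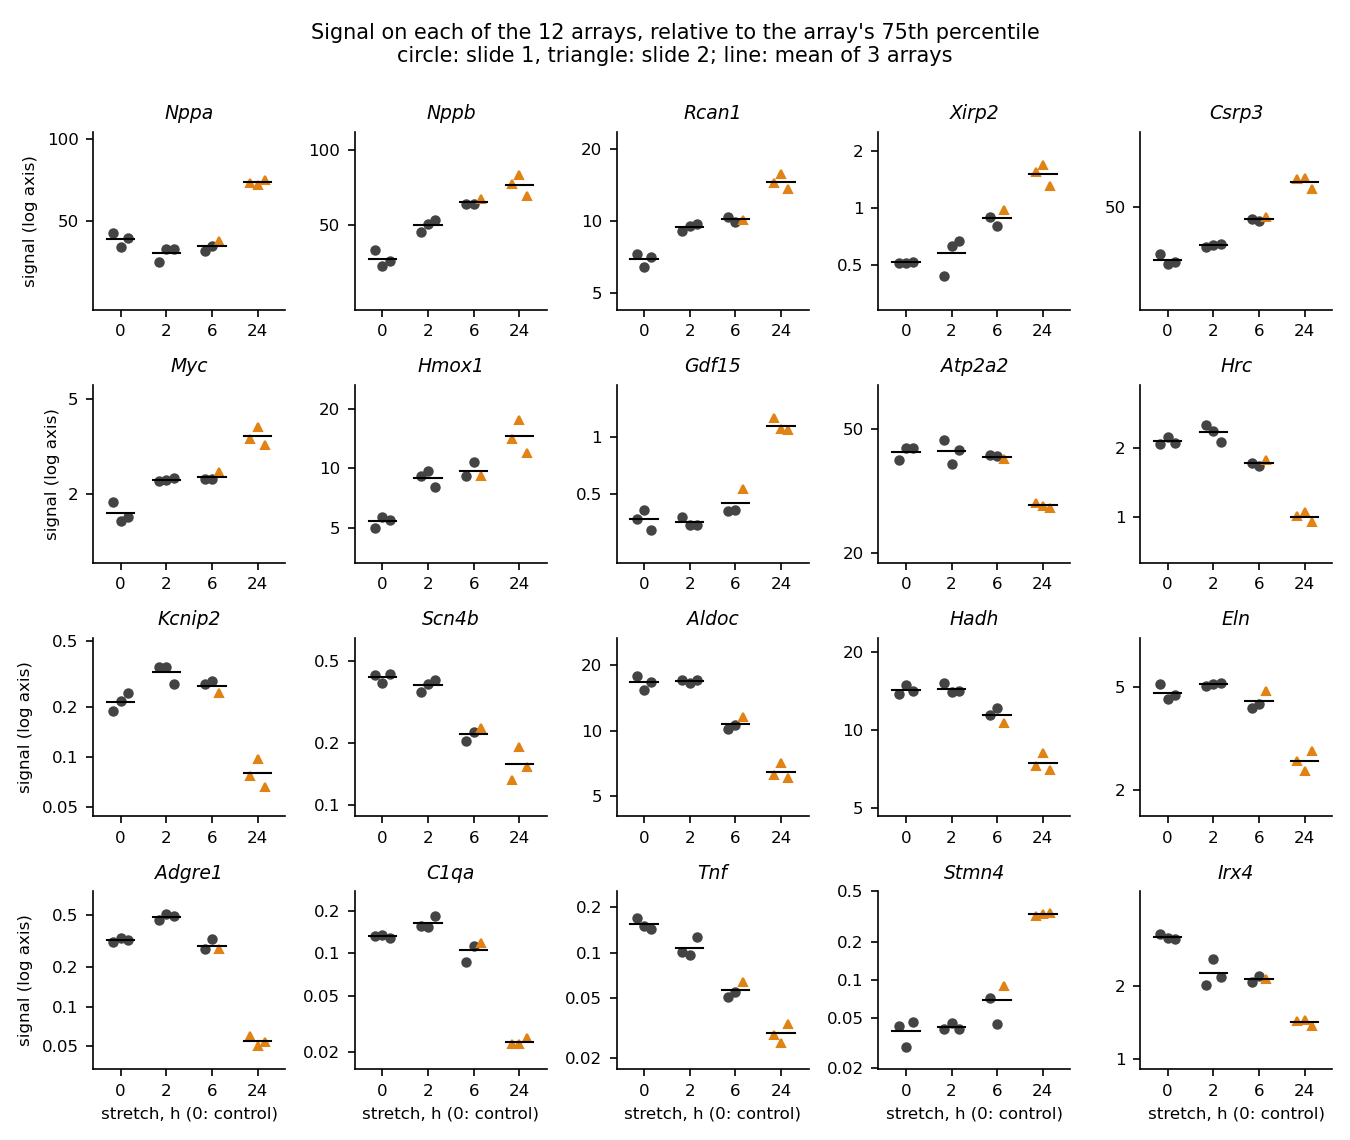
Signal of 20 genes on each of the 12 arrays (log axes, relative to the array's 75th percentile), against the hours of stretch, with 0 for control. Circles are arrays of slide 1, triangles of slide 2, and lines the mean of 3 arrays; the 6 h triangle is the array that shares slide 2 with the 24 h group. In all 20 panels the 24 h arrays lie apart from the controls. The 20 were chosen among called genes, and 58.9% of all genes tested show no overlap.

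Promoter sequence, from RefSeq's GRCr8 assembly, is shown for a few rising genes. They were chosen by name among those with a motif of a factor family known from muscle or stress responses. The 300 bases around the start were searched on both strands for TGACTCA (AP-1), TGACGTCA (CRE), CATTCC (MCAT, bound by TEAD factors), TTCNNNGAA (GAS, bound by STAT factors) and CACGTG (E-box), and none of the matches shown overlapped another. Only 9251 of the 14376 genes (64.4%) had 1 promoter in the table, too few for a comparison of shares between rising and falling genes, which is void. Over those 9251 promoters 3.58% held AP-1, 3.13% CRE, 11.3% MCAT, 6.93% GAS and 9.59% an E-box. Each stretch is 100 bases long, from the gene's own strand before its start, with the motif in capitals. A match is no evidence that a factor binds. Other rising genes of the text held these motifs too, among them Ccn2 (MCAT), Srxn1 (AP-1) and Plk2 (CRE). So did falling ones, among them Myh6 and Ttn (MCAT) and Gja1 and Mmp12 (AP-1), so the motifs are not particular to rising genes. Nppb (chr5:163699848-163699947, plus strand) holds MCAT on its other strand and Acta1 (chr19:68784205-68784304, minus strand) on its own. Xirp2 (chr3:72534036-72534135, plus strand) holds AP-1, and Rcan1 (chr11:45118367-45118466, minus strand) holds both CRE and AP-1.
Nppb: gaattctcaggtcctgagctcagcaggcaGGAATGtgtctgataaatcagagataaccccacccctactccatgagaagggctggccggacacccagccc
Acta1: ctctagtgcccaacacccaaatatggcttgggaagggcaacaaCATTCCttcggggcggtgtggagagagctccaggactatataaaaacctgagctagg
Xirp2: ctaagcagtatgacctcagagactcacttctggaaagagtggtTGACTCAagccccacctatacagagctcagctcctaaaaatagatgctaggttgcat
Rcan1: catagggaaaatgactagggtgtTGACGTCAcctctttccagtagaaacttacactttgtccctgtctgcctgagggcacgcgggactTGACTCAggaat

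Genes of the sarcomere mostly went the other way. Of 37 tested, 23 fell, 4 rose and 10 were not called, with a median of -0.31, which became 0.12 under spike-in scaling when that of all genes was 0.35; with the slide term 1 higher and 5 lower were called. Myh6 gave 170.4, 191 and 172 on the control arrays and 149, 131 and 143 on the 24 h arrays, a change of -0.33 ± 0.07 (adjusted p = 0.00288). Myh7 gave 145, 169 and 158 on the control arrays and 124, 113 and 125 on the 24 h arrays, a change of -0.38 ± 0.06 (adjusted p = 6.38e-04). So the fast and the slow myosin heavy chain, whose balance shifts in hypertrophy, were both lower, with ranges that did not overlap; both calls were lost with slide as a fixed block (adjusted p = 0.347 and 0.0827) and Myh6 also lost its call with array median scaling, and both signs turned under spike-in scaling (0.09 and 0.04). Larger falls were those of the M-band proteins Myom2 (-0.68 ± 0.07) and Myom1 (-0.65 ± 0.08) and of titin, Ttn (-0.64 ± 0.10), whose call was also lost with the slide term (adjusted p = 0.125). Cardiac actin, Actc1, gave 201, 215 and 199.6 in controls and 208, 191 and 193 at 24 h and was not called, though it passed as higher after quantile normalization (0.17). With spike-in scaling the calls for Myom1, Myom2 and Ttn were lost.

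Of the calcium handling genes most were lower, with 17 of 30 genes lower, 2 higher and 11 not called (median -0.27, but 0.16 under spike-in scaling; 1 higher and 7 lower with the slide term). Hrc gave 2.08, 2.24 and 2.09 on the control arrays and 1.01, 1.05 and 0.948 on the 24 h arrays. Hrc, a calcium-binding protein of the sarcoplasmic reticulum, thus fell by 1.09 ± 0.07 (adjusted p = 1.39e-06). Atp2a2 gave 39.7, 43.6 and 43.3 on the control arrays and 29.0, 28.3 and 27.8 on the 24 h arrays, a change of -0.57 ± 0.07 for this calcium pump, SERCA2; its call was lost under spike-in scaling (adjusted p = 0.520), and a second, dimmer probe changed by -0.08. Trpc6, a stretch-linked cation channel, fell by 0.81, a call also lost with spike-ins. Casq1, the calcium-binding calsequestrin of skeletal muscle, rose by 0.91 ± 0.06, with 0.666, 0.600 and 0.589 in controls and 1.14, 1.14 and 1.20 at 24 h. Its level at 6 h was not called against control (0.05), and it was higher at 24 h than at 6 h by 0.86.

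Most genes of channels that shape the action potential fell. Of 29 potassium and sodium channel genes 20 fell, 3 rose and 6 were not called, and the median of -0.57 stayed below 0 under spike-in scaling (-0.14). With the slide term 2 higher and 11 lower were called. Kcnip2 gave 0.189, 0.218 and 0.243 on the control arrays and 0.0770, 0.0970 and 0.0663 on the 24 h arrays. Kcnip2, whose probe spans chr1:251011241-251011585 (rn4), encodes the subunit that the transient outward potassium current needs, and fell by 1.45 ± 0.15 (adjusted p = 2.82e-05). The pore gene of that current, Kcnd2, changed by -0.56 ± 0.19, a call lost when any of the 6 arrays was left out (adjusted p from 0.052 to 0.11), with the slide term, under array median, spike-in and quantile scaling, and in the series matrix. Scn4b gave 0.429, 0.390 and 0.433 on the control arrays and 0.132, 0.191 and 0.152 on the 24 h arrays, a change of -1.41 ± 0.12, while Scn3b gave 0.460, 0.370 and 0.378 on the control arrays and 1.15, 1.33 and 1.12 on the 24 h arrays, a change of 1.58 ± 0.10. These accessory beta subunits of the sodium channel thus moved in opposite directions, with no overlap in either. Kcne1, a potassium channel subunit, was above background on all 24 h arrays and on no control, with a bounded fold of 2.98 upward. After normexp correction it was not called (-0.02 on the log2 scale). Here and below such a bounded fold sets the bright group against the higher of 2 values on each array. These are the dim probe's own signal and the lowest signal well above background. It is not a lower limit, since other settings gave smaller changes.

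Cell contact genes were called about as often as all genes. Of 19 gap junction and intercalated disc genes 8 fell, 2 rose and 9 were not called, with a median of -0.08, close to that of all genes. The list's median was 0.12 with array median and 0.35 with spike-in scaling, and the slide term left 1 higher and 3 lower. Gja1 gave 14.3, 13.6 and 13.1 on the control arrays and 9.97, 10.4 and 9.54 on the 24 h arrays, a change of -0.45 ± 0.05 (adjusted p = 4.14e-05) for connexin 43, the main ventricular gap junction protein; spike-in scaling took its call away. Itga7, the laminin receptor of muscle, fell by 0.83 and Ctnna3, a catenin of the disc, by 0.64, and both calls were lost under spike-in scaling. Gjb2, connexin 26, rose by 1.13 ± 0.10, from 0.141, 0.134 and 0.151 to 0.301, 0.330 and 0.301, and stood at 1.13 at 2 h.

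Receptor signalling genes fell in 21 of 43 cases (48.8%) and rose in 4 (9.3%), with 18 not called. Over all genes 31.7% fell and 16.2% rose. The list's median was -0.19, 0.00 with array median scaling and 0.23 with spike-ins, and the slide term left 2 higher and 10 lower. Ednra gave 1.53, 1.58 and 1.51 on the control arrays and 0.785, 0.821 and 0.733 on the 24 h arrays, a change of -0.98 ± 0.07 for the endothelin receptor A. The opposite case was F2rl1, protease-activated receptor 2, with 0.0340, 0.0292 and 0.0271 in controls and 0.0995, 0.0943 and 0.0937 at 24 h, a rise of 1.68 ± 0.10 that was 0.56 after normexp correction. Of 30 cardiac transcription factor genes 19 fell, 0 rose and 11 were not called (median -0.27, 0.16 under spike-in scaling; 0 higher and 7 lower with the slide term). Irx4 gave 3.29, 3.17 and 3.14 on the control arrays and 1.44, 1.45 and 1.37 on the 24 h arrays, a change of -1.17 ± 0.08 (adjusted p = 1.93e-06). Irx4, an Iroquois factor that marks ventricular identity, was already lower at 2 h (-0.50) and 6 h (-0.58), and all 24 h arrays lay below all others. Tbx5, a T-box factor of the early heart, fell by 0.59, a call lost under spike-in scaling.

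Of 27 immediate-early genes, induced without new protein synthesis, 16 were higher at 24 h, 3 fell and 8 were not called (median 0.28). With the slide term there were 11 rises and 1 fall. The list's median against control was 0.26 at 2 h and 0.14 at 6 h. Between 6 and 24 h, 14 of these genes were called higher and 1 lower. Atf3 gave 0.838, 0.789 and 0.843 on the control arrays and 2.54, 2.87 and 1.97 on the 24 h arrays, a change of 1.56 ± 0.11 (adjusted p = 3.11e-06). Fosl1 gave 0.217, 0.192 and 0.204 on the control arrays and 0.540, 0.702 and 0.465 on the 24 h arrays, a change of 1.46 ± 0.12. Myc gave 1.84, 1.54 and 1.61 on the control arrays and 3.42, 3.85 and 3.21 on the 24 h arrays, a change of 1.07 ± 0.08. For these 3 transcription factors of stress, AP-1 and growth the 24 h arrays were the higher ones, without overlap. Fos and Egr1, classical members, were not called (0.26 ± 0.11 and 0.22 ± 0.10, adjusted p = 0.0709 and 0.114). With array median or spike-in scaling and in the series matrix both passed as higher, and Fos also after quantile normalization. The nuclear receptor Nr4a3 rose by 0.92, a call lost after normexp correction. Among genes of MAPK feedback 7 of 19 rose (36.8%, against 16.2% of all genes). There were 6 falls (31.6%, close to the 31.7% of all genes). The phosphatases Dusp8 (0.92 ± 0.08) and Dusp10 (0.89 ± 0.09) led the rises. The list's median, 0.15, became -0.13 with the slide term (3 higher and 3 lower). It was -0.11 after normexp correction, which also ended the call for Dusp10.

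Genes of ribosome biogenesis, many of them Myc targets, had a median of 0.37, with 27 of 36 higher, 1 lower (Rrn3, -0.24) and 8 not called, and 15 higher and 0 lower with the slide term. Gnl3 gave 4.67, 4.88 and 4.68 on the control arrays and 7.23, 8.27 and 7.22 on the 24 h arrays, a change of 0.67 ± 0.07; it encodes nucleostemin. Bop1 gave 0.808, 0.781 and 0.839 on the control arrays and 1.16, 1.21 and 1.19 on the 24 h arrays, a change of 0.55 ± 0.04; the product processes ribosomal RNA of the large subunit. Ppan and Wdr12, from the same process, rose by 0.62 and 0.57. Among ribosomal proteins themselves the counts were different: of 48 cytosolic ones 0 rose, 6 fell and 42 were not called (median -0.07, but 0.13 with array median scaling, 0.36 with spike-ins and 0.02 after quantile normalization). Mitochondrial ones rose in 11 of 40 and fell in 2 (2 higher and 0 lower with the slide term), with Mrps12 at 0.41 ± 0.04.

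Most chaperone, proteasome and tRNA synthetase genes rose, by small steps. Heat-shock and chaperone genes gave 17 rises, 0 falls and 11 not called of 28 (median 0.19), led by the co-chaperones Dnajb5 (0.72 ± 0.07), Hsph1 (0.58 ± 0.09) and Bag3 (0.50 ± 0.09). Proteasome genes gave 21 rises and 1 fall of 31 (median 0.18), among them the lid subunits Psmd8 (0.45 ± 0.04) and Psmd12 (0.36 ± 0.05). The fall was that of Psmd11 (-0.47 ± 0.10). Of the aminoacyl-tRNA synthetases, which load amino acids onto tRNA, 11 of 19 rose and 1 fell (Qars1, -0.18), with Iars1 at 0.41 ± 0.05 and Tars1 at 0.41 ± 0.05. With the slide term 3 of 28 chaperone, 2 of 31 proteasome and 2 of 19 synthetase genes were still called higher, against 497 of all 14376 genes. Hsph1 (adjusted p = 0.0993) and Psmd11 (adjusted p = 0.200) were not called in that fit. Psmd11 was not called with spike-ins either. In the list of muscle ubiquitin ligases, autophagy and lysosome 18 of 37 fell and 4 rose (median -0.17, 0.03 with array median scaling and 0.26 with spike-ins; 2 higher and 5 lower with the slide term). Fbxo32, the ligase atrogin-1, fell from 0.921, 0.887 and 0.856 to 0.606, 0.602 and 0.607, a change of -0.55 ± 0.04 that spike-in scaling did not call.

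Stress responses were mixed. Of 41 NRF2 and oxidative stress genes 14 rose (34.1%), 8 fell (19.5%) and 19 were not called. Over all genes 16.2% rose and 31.7% fell. The list's median was 0.09, and the slide term left 8 higher and 4 lower. Hmox1 gave 5.0, 5.70 and 5.48 on the control arrays and 14.1, 17.6 and 11.9 on the 24 h arrays, a change of 1.42 ± 0.13 (adjusted p = 1.45e-05) for haem oxygenase 1. Srxn1 gave 4.21, 4.42 and 4.04 on the control arrays and 8.96, 11.9 and 8.20 on the 24 h arrays, a change of 1.18 ± 0.11 for sulfiredoxin. Osgin1, another NRF2 target, rose by 0.77. Among the falls was Cybb, the NADPH oxidase subunit of phagocytes (-1.53 ± 0.10). Of 43 genes of the unfolded protein and integrated stress responses 13 rose (30.2%), 5 fell (11.6%) and 25 were not called. In all 41.9% of this list were called, against 47.9% of all genes. The list's median was 0.03, or -0.09 with the slide term, where 5 were called higher and 2 lower. The rises included Mthfd2, a folate enzyme (0.66 ± 0.07), Ppp1r15a, which restores translation (0.66 ± 0.06), the arginine transporter Slc7a1 (0.58 ± 0.05) and the oxidoreductase Ero1a (0.48 ± 0.04). Among p53 targets and growth arrest genes 14 of 25 rose (56%) and 7 fell (28%), with a median of 0.29. The slide term left 6 higher and 3 lower. Plk2 gave 0.636, 0.641 and 0.585 on the control arrays and 1.56, 1.69 and 1.34 on the 24 h arrays, a change of 1.30 ± 0.08. Gadd45g rose by 1.09 and Aen, an apoptosis nuclease, by 0.70. The rise of the cell-cycle inhibitor Cdkn2a (0.98 ± 0.21) was 0.65 without control replicate 2, which read 0.0829 against 0.162 and 0.169 for the others, and its call was lost with the slide term.

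Genes of the cell cycle were called less often than the 47.9% of all genes, a difference not tested: of 55 6 rose, 12 fell and 37 were not called (median -0.06, but 0.14, 0.37 and 0.02 with array median, spike-in and quantile scaling; 0 higher and 5 lower with the slide term). Ccne1, cyclin E1, changed by 0.36 ± 0.06 and Cenpf, a kinetochore gene, by -0.37 ± 0.07; the first call was lost with the slide term, and the second with array median and spike-in scaling, turning to 0.06 with spike-ins. Clock genes rose in 5 of 16 and fell in 5, 31% each way, against 16.2% and 31.7% of all genes. Their median was -0.09, but 0.11, 0.34 and 0.13 with array median, spike-in and quantile scaling. The slide term left 0 higher and 1 lower. Dbp gave 2.60, 2.58 and 2.45 on the control arrays and 1.66, 1.63 and 1.59 on the 24 h arrays, a change of -0.64 ± 0.06 that stood at -0.61 at 6 h and lost its call under spike-in scaling. Ciart, a repressor of the clock, gave 0.0205, 0.0144 and 0.0120 in controls, where 1 array of 3 was above background, and 0.0308, 0.0345 and 0.0345 at 24 h. Its change of 1.12 ± 0.20 was not called with the slide term and was -0.06 after normexp correction. The 100 bases shown of its promoter (chr2:186112257-186112356, GRCr8, minus strand) hold 3 E-boxes, the motif that clock activators bind:
Ciart: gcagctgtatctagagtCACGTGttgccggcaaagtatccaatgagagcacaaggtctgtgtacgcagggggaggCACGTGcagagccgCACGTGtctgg

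Of the cytoskeletal and focal adhesion genes 25 of 54 rose, 11 fell and 18 were not called (median 0.11; 8 higher and 2 lower with the slide term). Enah gave 0.693, 0.745 and 0.732 on the control arrays and 1.82, 1.74 and 1.66 on the 24 h arrays, a change of 1.27 ± 0.07 (adjusted p = 5.00e-07); it drives actin filament growth. Krt18 gave 8.66, 7.56 and 8.66 on the control arrays and 18.0, 19.1 and 19.2 on the 24 h arrays, a change of 1.18 ± 0.08; this is a keratin of simple epithelia. Lmcd1, a LIM protein linked to calcineurin, rose by 1.23 ± 0.08, while Tln2, a talin of muscle, fell by 0.95. The largest rise among genes above background on all 6 arrays was that of Stmn4, which encodes a stathmin that binds tubulin and is known mainly from neurons. Stmn4 gave 0.0433, 0.0295 and 0.0463 on the control arrays and 0.320, 0.330 and 0.334 on the 24 h arrays, a change of 3.07 ± 0.22 (adjusted p = 3.30e-06), for the probe at chr15:45794337-45794396 on rn4, and 1.91 after normexp correction. All 24 h arrays stood within 0.320 to 0.334 and far above the rest, and the 6 h array of slide 2 read 0.0894. Rnd1 rose by 1.80 ± 0.11, from 0.363, 0.306 and 0.366 to 1.12, 1.36 and 1.13.

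YAP/TAZ targets, commonly read as a mark of mechanical signalling, mostly fell or were not called: 5 of 22 rose, 12 fell and 5 were not called (median -0.24, 0.18 under spike-in scaling; 0 higher and 5 lower with the slide term). Ccn2 gave 20.6, 19.8 and 18.4 on the control arrays and 27.6, 27.4 and 27.0 on the 24 h arrays, a change of 0.48 ± 0.06 for connective tissue growth factor. Ccn1 changed by 0.31 ± 0.10. Both were not called with the slide term (adjusted p = 0.0649 and 0.200), and the call for Ccn1 was lost when any of 4 single arrays was left out (adjusted p from 0.060 to 0.088). Ccn5, of the same family, fell by 0.66 and F3, tissue factor, by 0.69; spike-in scaling called neither. In the TGF-beta, BMP and activin list 7 of 28 rose (25%) and 11 fell (39.3%), against 16.2% and 31.7% of all genes. The list's median was -0.07, 0.13 with array median and 0.36 with spike-in scaling. The slide term left 4 higher and 4 lower. The ligand Tgfb3 changed by -0.75 ± 0.06, not called with spike-ins, and the activin inhibitor Fstl3 by 0.73 ± 0.07. Growth factors and receptors rose in 5 of 35 and fell in 18 (median -0.25, 0.18 under spike-in scaling; 5 higher and 11 lower with the slide term). Areg gave 0.782, 0.624 and 0.684 on the control arrays and 1.43, 1.65 and 1.46 on the 24 h arrays, a change of 1.12 ± 0.11 for amphiregulin, a ligand of the EGF receptor. Bdnf, a neurotrophin, rose by 1.05, a call that normexp correction ended, whereas Fgf7 fell by 0.95, with 2 of 3 arrays above background at 24 h. Erbb4, the neuregulin receptor of heart muscle, changed by -1.19 ± 0.18, and by -0.69 with the slide term (adjusted p = 0.126).

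**Figure D4:**
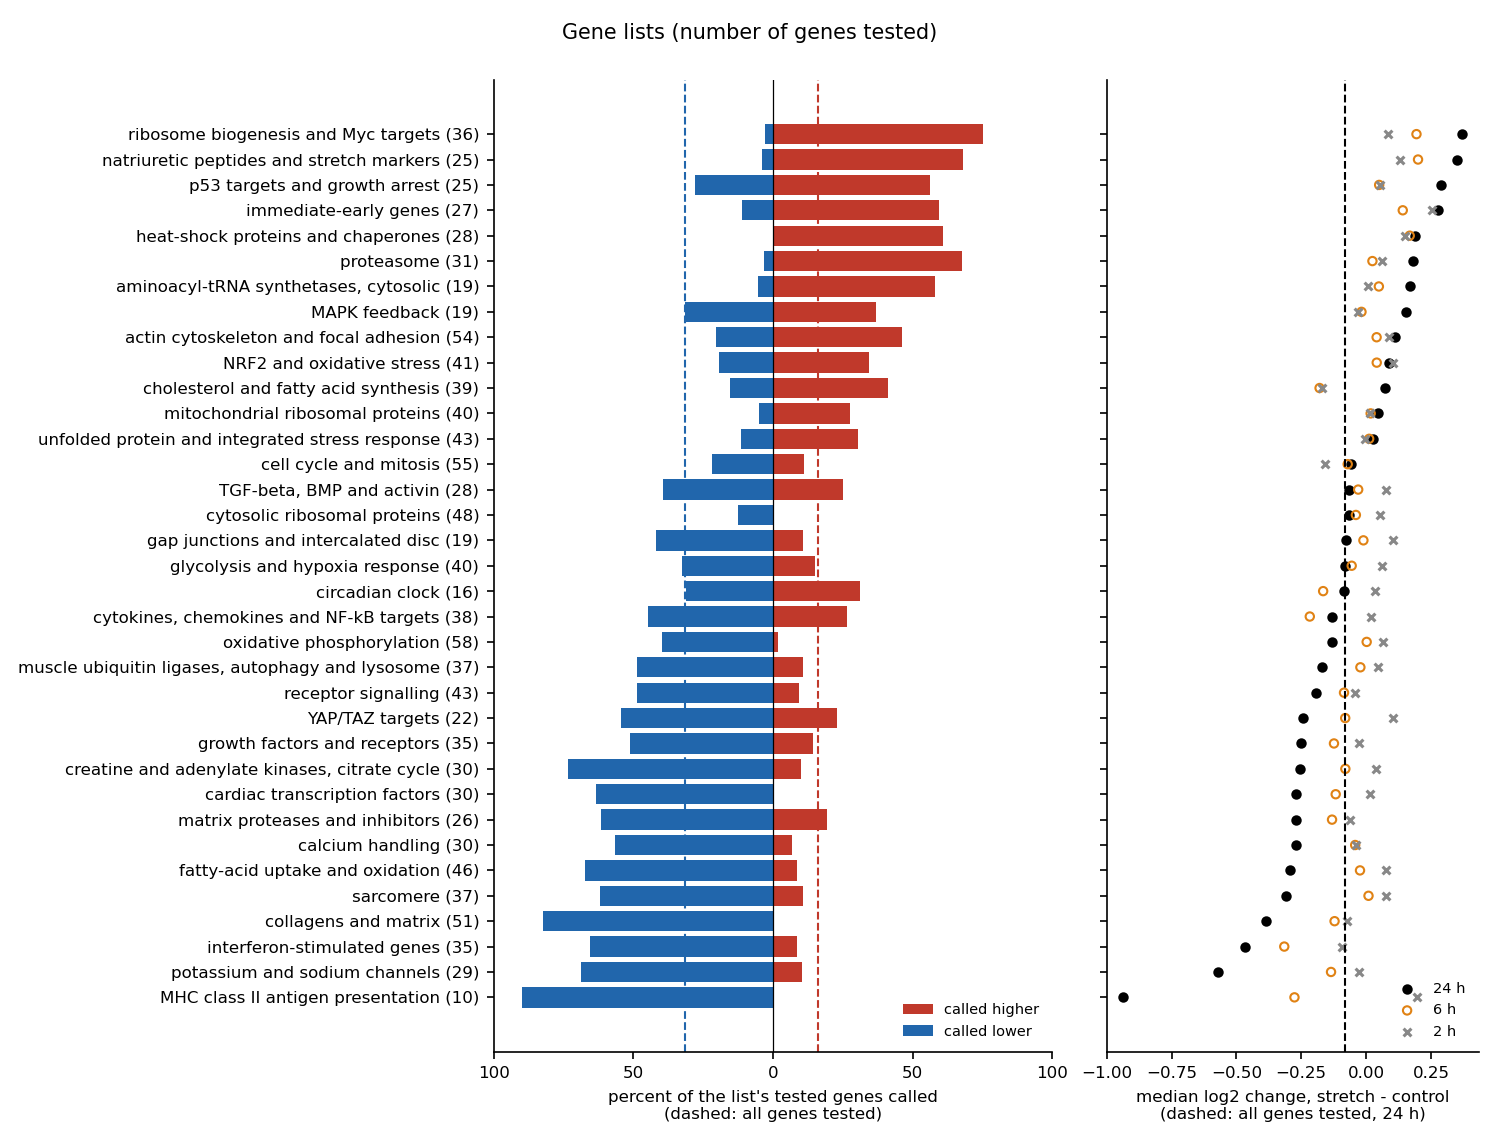
Left, the percentage of each list's tested genes called higher (red) or lower (blue) at 24 h, with dashed lines at the shares of all genes, 16.2% and 31.7%. Right, the list's median log2 change against control at 24 h (black), 6 h (orange) and 2 h (grey crosses), with the median of all genes at 24 h dashed; the 3 times share the same controls. Lists are in the order of the 24 h median, from ribosome biogenesis (0.37) to MHC class II (-0.94); cell type markers are not drawn.

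Genes of the extracellular matrix mostly fell. Of 51 tested genes of collagens and matrix 42 fell, 0 rose and 9 were not called, against 31.7% falls among all genes. The median was -0.39 (-0.51 with the slide term, with 30 falls and 0 rises; 0.04 under spike-in scaling, with 5 rises and 4 falls). Eln gave 5.15, 4.51 and 4.67 on the control arrays and 2.58, 2.37 and 2.84 on the 24 h arrays, a change of -0.88 ± 0.08 (adjusted p = 1.22e-05) for elastin. Col3a1 gave 31.3, 30.2 and 27.7 on the control arrays and 21.7, 17.4 and 20.0 on the 24 h arrays, a change of -0.60 ± 0.08. Col1a1 gave 73.1, 78.0 and 74.6 on the control arrays and 62.7, 55.4 and 62.5 on the 24 h arrays, a change of -0.32 ± 0.07 (adjusted p = 0.00267). In these 3 fibre proteins all 24 h arrays lay below all controls. The last call was lost with the slide term and with array median scaling, and turned to 0.10 with spike-ins; those of Col3a1 and Postn were lost with spike-ins. Lama2, a laminin chain of muscle basement membrane, fell by 0.93, Col11a1 by 0.97 and Postn, periostin, by 0.81. Fibronectin, Fn1, was not called (-0.06 ± 0.10), though a second probe for it changed by -0.34.

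Fibroblast markers moved with this list and share genes with it: 10 of 14 fell, 0 rose, and their summed signal went from 174 to 187 in controls to 127 to 146 at 24 h. Their median of -0.33 turned to 0.10 under spike-in scaling, with 2 higher and 0 lower, and that scaling raises the 24 h sums against the controls too. With the slide term 0 higher and 6 lower were called. Their part in the matrix result was not tested. In bulk RNA, fewer cells of a type and less RNA per cell cannot be told apart. Of the matrix proteases and their inhibitors 16 of 26 fell and 5 rose (median -0.27, 0.16 under spike-in scaling; 1 higher and 8 lower with the slide term). Mmp12, macrophage elastase, fell by 1.26 ± 0.09, from 0.453, 0.467 and 0.461 to 0.189, 0.181 and 0.206. Plau, urokinase, fell by 1.08, with 2 of 3 arrays above background at 24 h. Outside the list, the membrane-bound protease Mmp24 was among the 15 largest rises, with 0.157, 0.123 and 0.159 in controls and 0.413, 0.408 and 0.397 at 24 h, a change of 1.48 ± 0.09.

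Most genes of fat oxidation and of the creatine and citrate cycle list fell. Of 46 genes of fatty-acid uptake and oxidation 31 fell, 4 rose and 11 were not called (median -0.29, 0.13 under spike-in scaling; with the slide term -0.23, 0 higher and 13 lower). Hadh gave 13.8, 14.9 and 14.1 on the control arrays and 7.26, 8.12 and 6.98 on the 24 h arrays, a change of -0.94 ± 0.07 (adjusted p = 3.70e-06); it encodes an enzyme of beta-oxidation. Its groups did not overlap. Fabp4, a fatty-acid carrier found in fat cells, capillaries and macrophages, fell by 1.70 ± 0.10. Of the genes of creatine, adenylate kinases and the citrate cycle 22 of 30 fell and 3 rose (median -0.25, 0.17 under spike-in scaling; 1 higher and 7 lower with the slide term). Mitochondrial creatine kinase of muscle, Ckmt2, changed by -0.75 ± 0.10, and Gamt, of creatine synthesis, by -0.77 ± 0.05, while Ckm, the cytosolic kinase of muscle, fell by 0.73; all 3 calls were lost with spike-ins. Ckmt1, the ubiquitous mitochondrial form, went the other way, from 0.144, 0.123 and 0.137 to 0.235, 0.286 and 0.253, a rise of 0.93 ± 0.09.

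Oxidative phosphorylation genes fell in 23 of 58 (39.7%, against 31.7% of all genes) and rose in 1, with 34 not called. Of this list 41.4% were called in either direction, against 47.9% of all genes. The list's median was -0.13, but 0.06 with array median scaling and 0.30 with spike-ins. With the slide term 0 higher and 4 lower of the 58 were called, against 497 and 1548 of all 14376 genes. Cox8b, a muscle subunit of cytochrome oxidase, changed by -0.54 ± 0.08, Sdha, of complex II, by -0.38 ± 0.05 and Atp5f1b, of ATP synthase, by -0.42 ± 0.07. Under spike-in scaling none of these 3 was called and the signs of Sdha and Atp5f1b turned (0.05 and 0.01); the slide term also ended the call for Atp5f1b. Glycolysis and hypoxia genes gave 6 rises and 13 falls of 40, 15% and 32.5%, close to the 16.2% and 31.7% of all genes, and 3 higher and 5 lower with the slide term (median -0.08, that of all genes, with 0.11 and 0.35 under array median and spike-in scaling). Aldoc gave 17.8, 15.4 and 16.8 on the control arrays and 6.23, 7.14 and 6.09 on the 24 h arrays, a change of -1.36 ± 0.08 (adjusted p = 6.98e-07). Pgam2 gave 1.43, 1.43 and 1.37 on the control arrays and 0.546, 0.568 and 0.485 on the 24 h arrays, a change of -1.41 ± 0.08. These are an aldolase and the muscle form of phosphoglycerate mutase, and their groups lay far apart. Slc2a4, the insulin-responsive glucose carrier GLUT4, fell by 0.68, a call lost with spike-ins, and Adm, the vasodilator adrenomedullin, rose by 0.79 ± 0.05.

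Cholesterol and fatty-acid synthesis rose in 16 of 39 genes and fell in 6 (median 0.07); with the slide term the counts were 4 higher and 4 lower and the median 0.03. Idi1, of the isoprenoid branch, rose from 7.19, 6.82 and 6.26 to 9.22, 10.3 and 9.73, a change of 0.53 ± 0.06. Abca1, the cholesterol exporter, fell by 0.89. At 6 h the list's median against control was -0.18, and 29 of the 39 genes were higher at 24 h than at 6 h and 3 lower. Over all genes 25% were called between 24 and 6 h.

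Many of the largest falls were of genes known from macrophages. Of 18 macrophage and leukocyte markers 13 were tested, and 13 fell, with a median of -1.39, which was -1.37 with the slide term and -0.96 with spike-ins; 12 were called with either. Adgre1 gave 0.310, 0.335 and 0.322 on the control arrays and 0.0597, 0.0502 and 0.0535 on the 24 h arrays. Adgre1, the macrophage surface receptor F4/80, thus changed by -2.57 ± 0.08 (adjusted p = 8.29e-08). C1qa gave 0.133, 0.134 and 0.128 on the control arrays and 0.0226, 0.0227 and 0.0251 on the 24 h arrays, a change of -2.49 ± 0.11 for a chain of complement C1q. Aif1 gave 0.747, 0.712 and 0.678 on the control arrays and 0.162, 0.205 and 0.184 on the 24 h arrays, a change of -1.96 ± 0.09. The groups were separated by several-fold in all 3. Ptprc, the leukocyte antigen CD45, fell by 1.57. The summed signal of the 13 markers was 20.9 to 21.5 in controls, 22.2 to 25.9 at 2 h, 19.6 to 21.5 at 6 h and 7.65 to 8.64 at 24 h. All 13 were lower at 24 h than at 6 h too, and all 13 were still above background on the 3 arrays at 24 h.

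**Figure D5:**
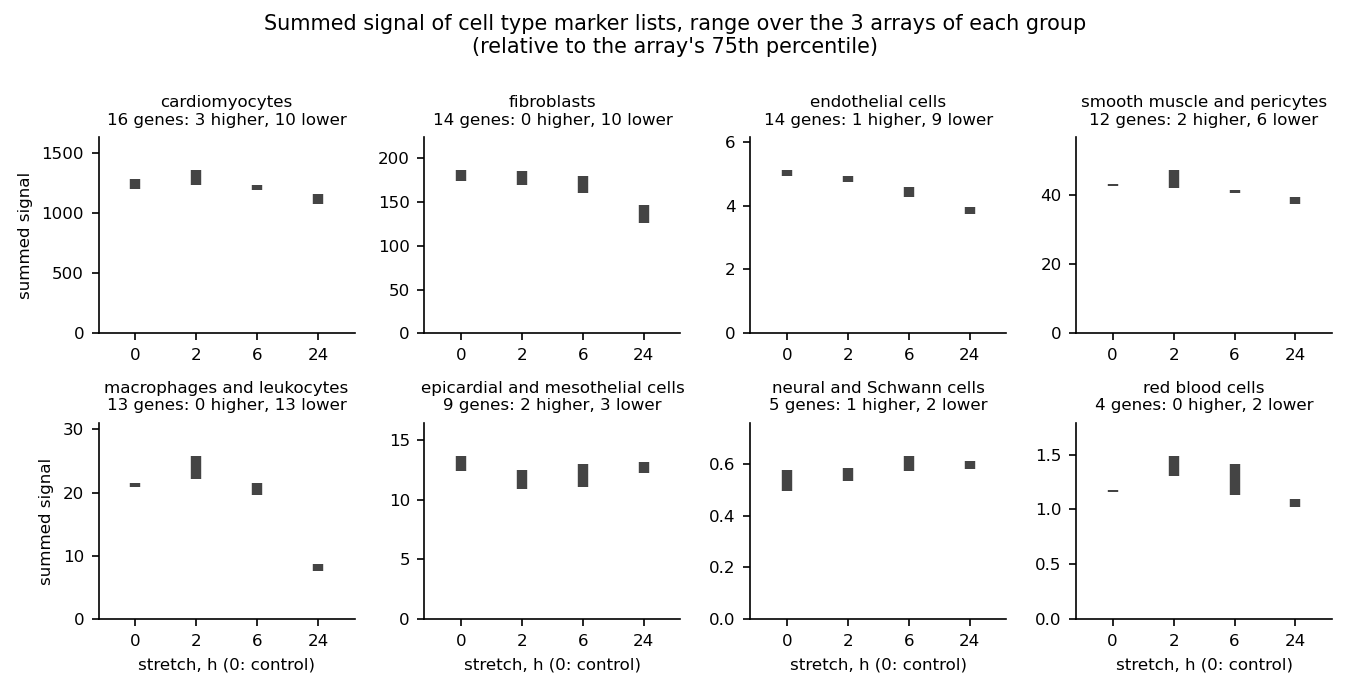
Summed signal of 8 lists of cell type markers (relative to the array's 75th percentile, axes from 0) against the hours of stretch, 0 being control. Each bar spans the lowest to the highest of the 3 arrays of a group, and the titles give the genes called at 24 h. Macrophage and leukocyte markers fall from 20.9 to 21.5 in controls to 7.65 to 8.64 at 24 h.

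Further falls among the 15 largest were of Cfd, complement factor D (-2.43 ± 0.10), Trem2, a lipid receptor of macrophages (-2.23 ± 0.09), and Ctss, the lysosomal protease cathepsin S (-1.83 ± 0.09). Slamf9 (-2.13), Fcrl2 (-2.11), Clec4a1 (-1.91) and Clec4a3 (-1.89) are receptors of the immune system as well. Other large falls were those of Hpgd, which inactivates prostaglandins (-2.19), Fhit (-1.86) and Ky, a muscle protein (-1.85). All of these were above background on all 6 arrays, with no overlap between the groups. Genes above background on the controls and on no 24 h array had bounded folds, all downward. These were 7.92 for Spic, 6.46 for RT1-Bb, 4.65 for Clec4a, 4.43 for Msr1, a scavenger receptor, and 4.30 for Pira2. Changes of dim genes are smaller after normexp correction or in the series matrix: C1qa fell by 1.59 and 1.47 there, and Spic by 1.33 and 0.96.

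Cytokine genes moved both ways, while MHC class II and interferon-stimulated genes mostly fell. In the cytokine and NF-kB list 17 of 38 fell, 10 rose and 11 were not called (median -0.13, 0.06 with array median scaling, 0.30 with spike-ins and 0.02 after quantile normalization; 4 higher and 12 lower with the slide term). Tnf gave 0.172, 0.151 and 0.145 on the control arrays and 0.0283, 0.0253 and 0.0336 on the 24 h arrays, a change of -2.43 ± 0.13 (adjusted p = 6.96e-07), or -1.50 in the series matrix. Tumour necrosis factor, read by a probe at chr20:3663558-3663617 (rn4), was already lower at 2 h (-0.53) and 6 h (-1.46). Il18 fell by 1.79 and the chemokine Ccl4, above background on 2 of 3 arrays at 24 h, by 2.53; after normexp correction the changes were -1.14 and -1.24. Of 10 tested MHC class II genes 9 fell and 0 rose (median -0.94; 0 higher and 6 lower with the slide term). Cd74 gave 0.0748, 0.0896 and 0.0913 on the control arrays and 0.0105, 0.0131 and 0.0133 on the 24 h arrays, with 1 of 3 above background at 24 h; this invariant chain changed by -2.80 ± 0.12, or -1.39 after normexp correction. Interferon-stimulated genes gave 23 falls, 3 rises and 9 not called of 35 (median -0.47, -0.04 with spike-ins, and 16 falls with the slide term). Irf7 gave 1.59, 1.58 and 1.51 on the control arrays and 0.763, 0.861 and 0.661 on the 24 h arrays, a change of -1.04 ± 0.11; Usp18, a brake of the pathway, fell by 1.28. All 13 leukocyte markers fell beside these 3 lists, and their part in them was not tested.

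Markers of the labelled cell type were present: all 16 cardiomyocyte genes tested were above background on all 6 arrays. Of these 10 fell, 3 rose and 3 were not called, and their summed signal was 1199.6 to 1279.9 in controls and 1078 to 1159 at 24 h. Under spike-in scaling their median of -0.32 turned to 0.11, with 3 higher and 0 lower, and the slide term left 2 higher and 2 lower. Markers of other cells were above background as well. Endothelial ones fell in 9 of 14 and rose in 1, with Cdh5, VE-cadherin, at -0.64 ± 0.08 and Flt1, a VEGF receptor, at -0.77 ± 0.11; spike-in scaling called neither, and the slide term did not call Flt1. With the slide term the endothelial list had 1 higher and 5 lower. Smooth muscle and pericyte markers fell in 6 of 12 and rose in 2 (0 higher and 3 lower with the slide term): Myh11, smooth muscle myosin, changed by -1.07 ± 0.13, Rgs5 by -0.72 ± 0.11 and Cnn1, calponin, by 0.60 ± 0.09. Of these Rgs5 was not called with spike-ins and Cnn1 not with the slide term. Among 9 epicardial and mesothelial markers 2 rose and 3 fell (median -0.08, 0.12 with array median and 0.35 with spike-in scaling), with Upk1b at 0.48 ± 0.05 and a second probe of it at 0.09. Neural markers gave 1 rise and 2 falls of 5 (20% and 40%), against 16.2% and 31.7% of all genes. Red blood cell markers gave 2 falls of 4 (50%, median -0.05), while spike-in scaling called 2 of them higher and 0 lower (median 0.38).

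The other large rises belonged to no list. Duox2 gave 0.0291, 0.0367 and 0.0343 on the control arrays and 0.122, 0.151 and 0.0917 on the 24 h arrays, a change of 1.84 ± 0.16; this oxidase makes hydrogen peroxide in epithelia. Procr gave 0.299, 0.275 and 0.260 on the control arrays and 0.726, 0.850 and 0.807 on the 24 h arrays, a change of 1.51 ± 0.07 (adjusted p = 2.74e-07) for the protein C receptor of endothelium. Gal gave 0.0402, 0.0285 and 0.0272 on the control arrays and 0.0962, 0.0947 and 0.0863 on the 24 h arrays, a change of 1.55 ± 0.15 for the neuropeptide galanin. In all 3 the 24 h arrays were the higher ones, without overlap. After normexp correction Duox2 changed by 0.82 and Gal by 0.57. Slc4a11, a membrane transporter, rose by 1.45 ± 0.19 and Sfnl1 by 1.40 ± 0.13. Genes above background on all 24 h arrays and on no control were treated in the same way. Their bounded folds, all upward, were 4.88 for Plcxd2 and 4.29 for Foxa2, a factor of endoderm. Those of Birc7, an inhibitor of apoptosis, and Pnoc, the precursor of nociceptin, were 2.58 and 2.47. After normexp correction none of these 4 was called, and Birc7 also lost its call with the slide term, in the series matrix and when any of 4 single arrays was left out (adjusted p from 0.054 to 0.077).

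Set against 6 h of stretch, 3601 genes differed at 24 h (25% of those tested), 1376 higher and 2225 lower. Of the 6888 genes called against control 3040 were also called against 6 h in the same direction and 30 in the other. The comparisons of 6 and 24 h with control share the control arrays; 1987 genes were called in the same direction in both and 44 in opposite directions. Among genes not called at 6 h were Gdf15 (0.28 at 6 h, 1.65 at 24 h), Atp2a2 (-0.05 and -0.57) and Adgre1 (-0.15 and -2.57). Among those already called at 6 h were Il1rl1 (1.01 and 1.23), Adm (0.64 and 0.79) and Gjb2 (1.02 and 1.13), for which 24 h was not called against 6 h. On slide 2 alone, where 1 array of 6 h stands beside the 3 of 24 h, 240 genes were called between the times.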

How the data were processed

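Total RNA of 12 cultures was hybridised to 1-colour Agilent rat arrays (Cy3; probes placed on build rn4, per the file headers). The deposited scanner files held spot intensities in which Agilent Feature Extraction had subtracted background; the version was 11.0.1.1 per the file headers and 10.7.3.1 in the submitters' processing notes. The deposited series matrix held linear intensities of 28902 probes, and served as an alternative after taking log2; its array medians were 7.02 to 7.14 (log2), its rank correlation with the scanner values was at least 0.9988, and its centring is unknown. Spots marked as outliers were left out, spots of a probe were averaged, and log2 of the deposited intensity minus the array's 75th percentile was used. Probes were kept when well above background on all 3 arrays of a group (18997 of 30367, of which 16961 had a gene name), with the probe of highest mean signal per gene. Names came from RefSeq by accession for 18005 probes, by symbol for 2668 and by synonym for 547; 4963 kept the file's name and 4184 had none. Where 1150 called genes had a further probe, 147 had one of the other sign.

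limma 3.58.1 in R 4.3.3 fitted 4 group means over the 12 arrays, with 8 residual degrees of freedom and Benjamini-Hochberg adjustment over 14376 genes. On simulated data of 14376 genes, 100 were changed by each amount, with no slide effect. For this comparison 71% of changes of 0.5 (log2) and 93% of changes of 1 were recovered, with 6 false calls (3.53%). The simulation cannot address the slide or changes in as many genes as were called here. Named were 24 genes chosen by name, the 15 largest rises and falls above background on all 6 arrays, the 5 largest bounds each way and up to 4 called genes of a list; Corin, Rrn3 and Qars1 were added after their values were seen. The genes, lists and tests were chosen with earlier results of these data known. Alternatives changed scaling, background, filter, slide, probe choice, variance model and the arrays left out. The number of arrays limits the precision. Whether probes lie in exons or untranslated regions was not analysed here. Some genes that the rule names are not reported here.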

Additional observations from a re-analysis of the deposited data

Results flagged for a closer look

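Among the named genes 4 were picked by limma calls in opposite directions at an early time and at 24 h, against the same controls. A called difference between the times was part of the rule, so it and its adjusted p add no support. The early limma calls of Kcnip2 and Ciart lay near the threshold (adjusted p = 0.032 and 0.042). Adgre1, the macrophage receptor F4/80, was 0.59 above control at 2 h and -2.57 at 24 h, a difference of -3.16 on the log2 scale (adjusted p = 1.89e-08). Kcnip2, of the transient outward current, stood at 0.59 at 2 h and -1.45 at 24 h, a difference of -2.04 (adjusted p = 3.28e-06). Ciart, of the clock, stood at -0.75 at 2 h and 1.12 at 24 h, a difference of 1.87 (adjusted p = 4.62e-05), and was above background on 1 of 3 control arrays. Ckmt1, a mitochondrial creatine kinase, stood at -0.53 at 6 h and 0.93 at 24 h, a difference of 1.47 (adjusted p = 2.86e-06). The 2 h arrays lay on slide 1 and the 24 h arrays on slide 2, so for the 2 h differences slide and time cannot be told apart.

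Of 2036 kept probes without a gene name, 530 (26%) were called between 24 h and control by limma, 100 higher and 430 lower. Of the named genes 47.9% were called, in a separate fit with its own adjustment. Among the called unnamed probes 39 changed at least 2-fold.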

How the results depend on the processing

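With slide as a fixed block the count of genes called fell from 6888 to 2045, with 497 higher and 1548 lower. Scaling by the array median gave 5579 higher and 2202 lower, spike-in scaling 5522 and 641, and quantile normalization 2929 lower. Changes of at least 2-fold numbered 486, and 153 after normexp correction, 116 in the series matrix, 762 with no filter on dim probes and 308 among genes above background on all 6 arrays. Between 24 and 6 h 3601 genes were called, with 1072 under spike-in scaling, 1101 with the slide block and 240 on slide 2 alone, a setting chosen after seeing the data. Where the main fit or the alternative called the gene, signs turned under spike-in scaling for Myh6 (0.095), Myh7 (0.045), Col1a1 (0.10), Atp5f1b (0.0096), Sdha (0.050) and Cenpf (0.059). They turned after quantile normalization for Actc1 (0.17), and after normexp correction for Kcne1 (-0.019), Birc7 (-0.14), Pnoc (-0.034) and Ciart (-0.059). Without a call, Actc1 and Fn1 also turned with array median (0.14 and 0.13) and spike-in scaling (0.37 and 0.36). Fn1 turned after normexp correction (0.05) and in the series matrix (0.06) too. The cause was not tested. Without 1 array at a time the count of genes called lay between 5773 and 6494. Replicate numbers were not used to pair the samples. Across genes, deviations of controls and 24 h arrays with the same number correlated at -0.11, -0.05 and 0.08. Those with different numbers correlated at -0.08 to 0.11. With 3 arrays a group these values cannot tell whether equal numbers shared an isolation. A fit with the replicate number as a block called 6639 genes. Of the 148 called genes named in the text, calls were lost for 32 with spike-ins, 18 with the slide block, 9 after normexp correction, 4 with the array median, 2 in the series matrix and 1 after quantile normalization.

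The comparison has 3 arrays a group, a slide that changes with the group, and no time point for the controls. Of the 148 genes, 77 moved by more than 1.5 times with spike-in scaling, 41 in the series matrix and 27 after normexp correction. The counts were 17 with the array median, 10 after quantile normalization and 4 with the slide block, where 18 calls were lost.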
